A study of Mus musculus with 9 samples.

Results

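The baseline transcriptome of control B16F10 cells was read from 3 of the 9 libraries of a knockout study, those whose titles name a guide against GFP (GFPsg, replicates 1 to 3). B16F10 is a mouse melanoma line, and these cells were grown in DMEM with 10% FBS and carry the genotype label WT. The other 6 libraries, labelled as Tada2b knockout with 2 further guides, were not used here, so every value below is a level in the control and none is a change. Nothing in the labels says whether the 3 replicates came from separate cultures, or which Cas9 or GFP constructs the cells carry. The labels give the RNeasy Plus Mini kit for extraction and KAPA Stranded mRNA-Seq for the libraries. In bulk RNA, fewer cells with a transcript and less transcript per cell cannot be told apart.

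Melanocytes arise from the neural crest and make melanin in melanosomes, organelles related to lysosomes. The transcription factor MITF, with SOX10 and PAX3, switches on the enzymes tyrosinase, TYRP1 and DCT and the structural proteins that shape the organelle. B16F10 is known for heavy pigmentation, for spread to the lung and for low surface MHC class I, and it is widely used as a graft in mice with an intact immune system.

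The 3 libraries held 75.3, 70.6 and 74.8 M counts (M, mega). Levels are given as TPM (counts divided by exon length and scaled to the same total in every library), as the mean ± SD over 3 libraries unless each library is listed. A gene was called on at 1 TPM or more in each of the 3 libraries, off under 0.1 TPM in each, and low in between, and no test was made. Of 21921 protein-coding genes, 10303 were on (47.0%), 2476 low (11.3%) and 9142 off (41.7%), and 5931 of them had no read in any library. These shares are the background for every count of list members below, and some lists lay near them. The median was 0.508 TPM over all coding genes and 14.7 TPM over those that were on. A count of 0 allows up to 3 reads per library, which is 0.0721 TPM for Cdkn2a and 0.00746 TPM for the longer Egfr. These limits cover counting error only.

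**Figure D1:**
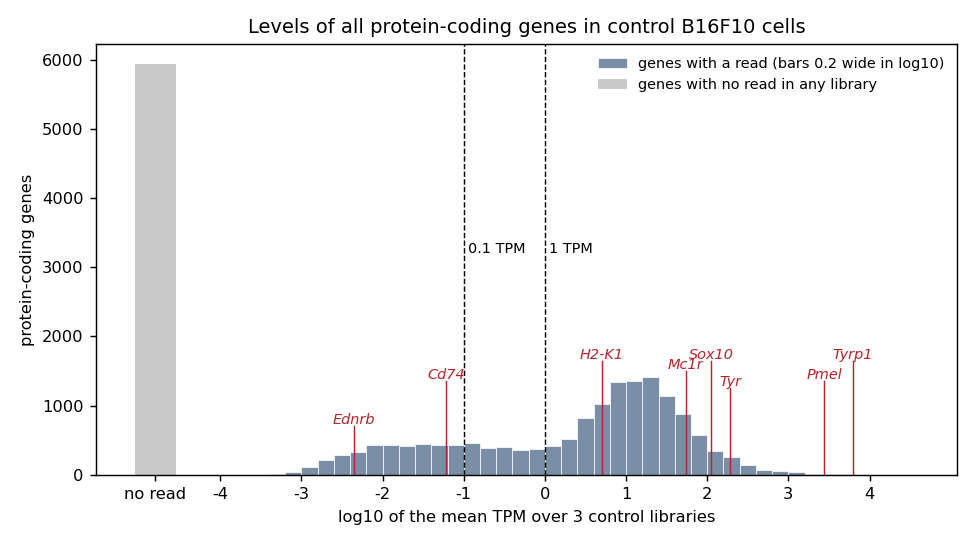
Number of protein-coding genes (vertical axis) by the log10 of the mean TPM over the 3 control libraries (horizontal axis), with the 5931 genes that had no read as a separate bar and dashed lines at 0.1 and 1 TPM. Red marks place Ednrb and Cd74 below 0.1 TPM, H2-K1, Mc1r, Sox10 and Tyr within the main peak or its right shoulder, and Pmel and Tyrp1 at the far right.

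The pigment genes stood at the very top of the transcriptome. Tyrp1 (ENSMUSG00000005994, chromosome 4, 80834123 to 80851719 of mm10), which encodes a melanosomal oxidase of eumelanin synthesis, was counted at 6582, 6060 and 6065 TPM. Of the nuclear protein-coding genes, ribosomal protein genes included, it ranked 2, after the translation elongation factor gene Eef1a1 at 13620 ± 527 TPM, and it was 1.83 ± 0.0344 times the level of the actin gene Actb. Mlana (ENSMUSG00000024806, chromosome 19, 29697824 to 29708634), a melanosome membrane protein that T cells can recognise as an antigen, stood at 3037, 2922 and 2951 TPM and ranked 6. The 3 libraries thus placed these genes at much the same level, with replicate 1 the highest for both.

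Pmel (ENSMUSG00000025359, chromosome 10, 128704195 to 128720238) builds the amyloid fibrils on which melanin is laid down, and was counted at 2976, 2704 and 2654 TPM, at rank 9. Dct (ENSMUSG00000022129, chromosome 14, 118012790 to 118052244), the dopachrome tautomerase, was at 1744, 1720 and 1648 TPM. Tyr (ENSMUSG00000004651, chromosome 7, 87424771 to 87493512), the rate-limiting enzyme of the pathway, was at 188, 186 and 197 TPM, well below both of its sister enzymes in every library. Tyrp1 stood 32.8 ± 2.09 times and Dct 8.96 ± 0.518 times above Tyr. The 4 genes that mark the lineage, Pmel, Tyr, Dct and Mlana, were therefore all on, which matched the label, and made up 1.43 ± 0.0302% of nuclear coding TPM.

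The upstream sequences of 3 genes of this group are shown because they hold the letters CATGTG or their reverse complement CACATG, in capitals, the E-box form known as a binding motif of MITF. They are RefSeq sequences of 250 bases before the start site on GRCm38.p6, the build also called mm10, written 5′ to 3′ on the strand of the gene.
Tyr, chr7:87493513-87493762 (minus strand): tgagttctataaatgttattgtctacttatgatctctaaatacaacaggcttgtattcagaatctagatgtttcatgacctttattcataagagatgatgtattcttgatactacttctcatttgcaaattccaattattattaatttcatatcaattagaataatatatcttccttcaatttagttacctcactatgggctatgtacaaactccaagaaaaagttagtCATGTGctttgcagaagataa
Dct, chr14:118052247-118052496 (minus strand): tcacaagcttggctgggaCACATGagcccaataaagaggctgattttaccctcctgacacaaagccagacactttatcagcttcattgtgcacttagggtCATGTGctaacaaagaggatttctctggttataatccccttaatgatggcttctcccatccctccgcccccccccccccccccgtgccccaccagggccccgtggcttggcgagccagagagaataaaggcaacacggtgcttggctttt
Trpm1, chr7:64153585-64153834 (plus strand): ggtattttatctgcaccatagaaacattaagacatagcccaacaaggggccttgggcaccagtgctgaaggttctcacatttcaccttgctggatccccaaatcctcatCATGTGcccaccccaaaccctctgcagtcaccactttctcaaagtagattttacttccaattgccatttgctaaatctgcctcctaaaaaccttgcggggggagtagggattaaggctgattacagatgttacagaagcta
The motif starts 21 bases before the start site in Tyr, 232 and 150 bases before it in Dct, and 141 bases before it in Trpm1, which encodes a melanocyte cation channel. In Tyrp1 it starts 46 bases before the RefSeq start. No such sequence was available for Pmel, Mlana, Slc45a2 and Gpr143 of the melanin and melanosome core list. Of the 14 genes of that list with a sequence, 7 held CATGTG on either strand in at least 1 of their promoters. The same held for 13.8% of all 27025 genes with a sequence, 8.69% of coding genes that were on and 14.8% of those off. Counted by promoter, CATGTG was in 7 of 17 of the core list (41.2%) and in 12.3% of all 32851. The related palindrome CACGTG, which cannot overlap CATGTG at the same bases, was in 3 of the 14 genes and in 6.86% of all genes. Another Trpm1 promoter, at chr7:64185209-64185458, held CACGTG and not CATGTG. A match of 6 letters is a description of the sequence and not of binding.

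Nearly the whole pigment machinery was on. In the core list of melanin synthesis and the melanosome, 18 of 19 genes were on and 1 was off, beside 47.0% on and 41.7% off among all coding genes, with a median of 52.5 TPM against 0.508 TPM over all coding genes, and together they held 3.06 ± 0.0852% of nuclear coding TPM. Gpnmb, a glycoprotein related to Pmel, was at 1441 ± 97.0 TPM. The transporters that set melanosomal ions followed, with Slc45a2 at 477 ± 29.9, Slc24a5 at 239 ± 9.64 and Oca2 at 11.5 ± 0.910 TPM. Gpr143, the ocular albinism receptor, was at 52.5 ± 4.00 TPM, close to Trpm1 at 50.1 ± 2.28 TPM. The 1 gene of the list that was off was Pcsk6, a proprotein convertase, with 1, 4 and 3 reads.

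All 30 genes of melanosome biogenesis and transport were on, with a median of 26.7 TPM. Rab38, the GTPase that routes tyrosinase to the melanosome, led at 648, 642 and 637 TPM and was also the highest of 69 RAB genes by symbol. Cd63, a tetraspanin that sorts Pmel, was at 355 ± 8.65 TPM. All genes of the complex that ties melanosomes to actin were on, with Rab27a at 177 ± 5.82, the motor Myo5a at 97.9 ± 8.92 and its adaptor Mlph at 88.8 ± 8.92 TPM. Mreg, melanoregulin, was at 108 ± 5.05 TPM.

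**Figure D2:**
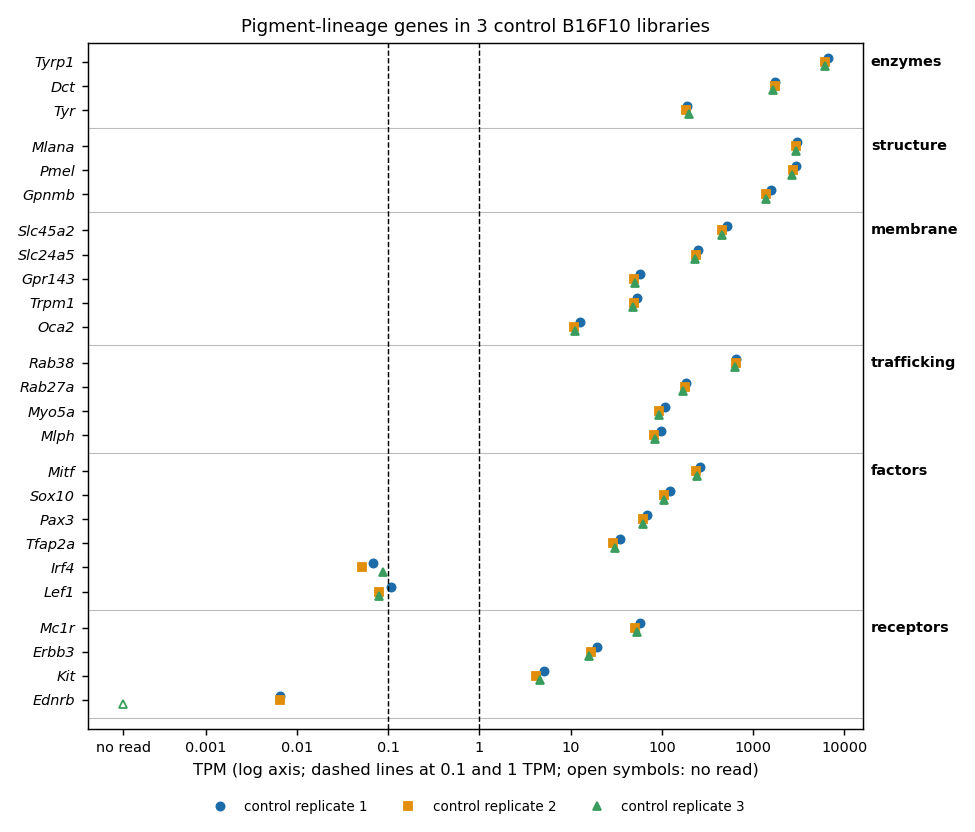
TPM on a log axis of pigment-lineage genes in the 3 control libraries (symbols by replicate, open where a library had no read), with dashed lines at 0.1 and 1 TPM. Tyrp1, Mlana, Pmel and Dct lie farthest to the right in all 3 libraries, while Irf4, Lef1 and Ednrb lie at or below 0.1 TPM.

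The transcription factors of the lineage ranged from high to off. Mitf (ENSMUSG00000035158, chromosome 6, 97807052 to 98021349) was counted at 261, 236 and 245 TPM, which was 39.3 ± 2.24 times the level of its relative Tfe3. Sox10 stood at 123, 105 and 106 TPM and Pax3 at 69.4, 61.4 and 62.7 TPM. Of 9 PAX genes it was the only 1 that was on in all 3 libraries, and Pax9 was also on when replicate 3 was left out. In each of these genes replicate 1 was the highest library and replicate 2 the lowest.

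Of 25 melanocyte transcription factors, 15 were on, 2 low and 8 off. Id2, an inhibitor of helix-loop-helix factors, was at 229 ± 9.84 TPM, Tfap2a at 31.7 ± 3.06 TPM and Sox9 at 11.2 ± 0.836 TPM. The off genes included Irf4, which is known to act with MITF at the tyrosinase gene, at 0.0683, 0.0517 and 0.0883 TPM. Twist1, Foxd3 and Sox2 had no read in any library. Among the factors of epithelial to mesenchymal change, Zeb2 was at 22.1 ± 1.61 and Snai2 at 4.83 ± 0.749 TPM, whereas Zeb1 and Snai1 were off with at most 5 reads per library.

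Receptors of the lineage were unevenly present. Mc1r, the receptor for melanocyte-stimulating hormone, was counted at 58.1, 50.9 and 52.9 TPM. Pomc, the precursor of that hormone, was also on, at 1.94 ± 0.245 TPM, and Asip, which encodes the antagonist agouti, was low with 11, 7 and 10 reads. Kit was at 5.07, 4.18 and 4.56 TPM and its ligand gene Kitl at 2.74 ± 0.0909 TPM, so that both partners were on. Ednrb, the endothelin receptor of melanoblasts, was off with 1, 1 and 0 reads, and Ngfr, a neural crest stem cell marker, was low at 0.607 ± 0.0911 TPM.

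Beside 47.0% on and 41.7% off among all coding genes, 16 of 45 receptor tyrosine kinases were on (35.6%), 7 low and 22 off (48.9%). Their median was 0.0950 TPM. Met, the receptor for hepatocyte growth factor, led by a wide margin at 195, 166 and 175 TPM. Its ligand gene Hgf was off, with 0, 0 and 1 reads. The collagen receptor Ddr2 came next at 49.4 ± 3.25 TPM, and Erbb3, a neuregulin receptor, stood at 17.5 ± 1.87 TPM. Egfr had no read in any library, and of the 4 FGF receptors none was on. The TAM receptors, which bind Gas6 and Pros1, were all on at modest levels, with Axl at 4.97 ± 0.598, Tyro3 at 2.61 ± 0.264 and Mertk at 1.28 ± 0.0438 TPM. Of their ligands, Gas6 was off with 0, 4 and 2 reads and Pros1 was on at 11.4 TPM.

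Of 35 growth factor ligands, 11 were on. They included Vegfb at 58.0 TPM, Angpt2 at 20.3 TPM and Vegfa at 15.6 ± 0.995 TPM, all factors of vessel growth. The neuregulin gene Nrg1, the insulin-like growth factor gene Igf1 and the EGF-family genes Areg and Ereg had no read. Igf2 had none either, but 64.6% of its exon bases lie within exons of another gene, where reads may not have been assigned.

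The RAS and MAPK pathway, the main oncogenic route in melanoma, was on in 24 of 26 members with a median of 20.8 TPM. Among the RAS genes Nras was at 61.3, 58.6 and 58.1 TPM and Hras at 47.4, 45.1 and 45.2 TPM, an order that was the same in each library with no overlap. Braf was at 10.3 ± 0.996 TPM and Nf1, which restrains RAS, at 17.8 ± 2.06 TPM. The ERK gene Mapk3 stood at 40.1 ± 2.72 TPM. Counts per gene do not show mutations.

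Feedback genes that ERK activity is known to induce were well represented, with 13 of 17 output genes on and none off. Dusp6, a phosphatase of ERK, was at 106, 97.2 and 98.8 TPM and Dusp4 at 98.7, 86.2 and 83.2 TPM. Spry2 was at 28.5 ± 1.69 TPM and the ETS factor Etv5 at 9.84 ± 0.580 TPM. Etv4 was just above the threshold at 1.30 ± 0.25 TPM.

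PI3K, AKT and mTOR genes were on in 23 of 25 cases. Akt1, a kinase activated by PI3K, was at 303, 273 and 273 TPM, 11.6 ± 0.161 times the level of Akt2. The leukocyte subunit gene Pik3cg was off with 1, 0 and 0 reads.

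In the WNT list 19 of 50 genes were on (38.0%) and 22 off (44.0%), beside 47.0% on and 41.7% off among all coding genes. Ctnnb1, which encodes beta-catenin, was at 358, 335 and 329 TPM, and 7 of 10 frizzled receptors were on, led by Fzd7 at 39.9 TPM. None of the 19 Wnt ligand genes was on, 5 were low and 14 off, and the highest, Wnt5b, was at 0.601 TPM. Axin2, a common target of the pathway, was on at 5.36 ± 0.813 TPM. Lef1, a DNA-binding partner of beta-catenin, was low with 34, 25 and 26 reads.

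Of 32 TGF-beta and BMP genes 20 were on (62.5%) and 10 off, beside 47.0% on and 41.7% off among all coding genes. Tgfbr1 was at 31.0 ± 0.612 TPM and Tgfb1 at 1.89 ± 0.231 TPM, below Tgfb2 at 8.10 ± 0.245 TPM. Of 17 YAP and TEAD genes 15 were on, with Yap1 at 36.7 ± 2.16 TPM and its target Ccn1 at 34.9 ± 4.57 TPM. In the Notch and Hedgehog list 9 of 25 were on (36.0%) and 10 off (40.0%). Notch2 was on at 6.6 ± 0.832 TPM, and the Hedgehog effector Gli1 was off with 11, 7 and 5 reads.

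Among the cell cycle brakes, a pair of neighbours had no reads. Cdkn2a, which encodes p16 and p19ARF (chromosome 4, 89274471 to 89294653), and its neighbour Cdkn2b (89306299 to 89311039), which encodes p15, had no read in any of the 3 libraries, and neither shares exon bases with another gene. On 1 side lies Mtap, an enzyme of methionine salvage (89137122 to 89181081), with 39352, 38442 and 39392 reads or 335 ± 4.89 TPM. On the other side Dmrta1 was off with 4, 1 and 0 reads. Farther out Klhl9 (88718292 to 88722465) was at 143 ± 2.67 TPM. From counts alone, a deleted and a silent locus cannot be told apart.

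Other brakes were expressed. Trp53 was counted at 61.9, 55.1 and 57.5 TPM, its inhibitor Mdm2 at 70.2, 62.9 and 68.0 TPM, and its target Cdkn1a, the p21 gene, at 96.4, 81.8 and 85.2 TPM. Cdkn1b, the p27 gene, stood at 81.9 ± 1.68 TPM and Rb1 at 7.78 ± 0.856 TPM. In that list 17 of 22 genes were on.

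Of 26 cell cycle engines 24 were on and none was off, with a median of 81.7 TPM. Cdk4, the kinase that p16 inhibits, was at 257, 249 and 254 TPM, 48.7 ± 4.17 times the level of Cdk6. Among its D-type cyclins, Ccnd2 at 208 ± 17.2 TPM stood 3.29 ± 0.0406 times above Ccnd1. Pcna was at 307 ± 1.42 TPM and the proliferation marker Mki67 at 83.5 ± 9.26 TPM. Myc was at 54.5 ± 4.93 TPM while Mycn and Mycl were off, and the telomerase gene Tert was low with 46, 35 and 52 reads.

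In the BCL-2 family 11 of 18 genes were on (61.1%), beside 47.0% of all coding genes. Mcl1, a survival protein, was at 105 ± 1.97 TPM, 16 ± 0.918 times the level of Bcl2. Bax, which opens the mitochondrial membrane, was at 124 ± 0.905 TPM. Of the death receptor list 9 of 14 were on, with Casp8 at 69.1 ± 1.00 TPM and Tnfrsf10b at 8.04 ± 0.699 TPM, whereas Fas was low with 14, 8 and 16 reads. The necroptosis effector Mlkl was at 59.1 ± 1.49 TPM and its kinase Ripk3 low at 0.214 ± 0.0346 TPM.

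Of 35 genes of glucose transport and glycolysis 26 were on, and the highest were the widely expressed isoforms. Pgk1 was at 1631, 1600 and 1618 TPM and Pgam1 at 1061, 1041 and 1008 TPM. Aldoa followed at 748 ± 45.2, Pkm at 610.4 ± 44.5 and Eno1 at 509 ± 26.4 TPM. The liver form Pklr, the hexokinase Hk3, the liver glucose carrier Slc2a2 and the germ-cell forms Pgk2 and Ldhc were all off, with at most 5 reads in a library. Gapdh was counted at 68.4 ± 5.83 TPM, a value that is uncertain because near-identical copies of this gene can take or lose its reads.

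Lactate dehydrogenase was mixed. Ldha was at 484, 446 and 449.5 TPM and Ldhb at 138, 135 and 127 TPM, a ratio of 3.46 ± 0.128 with no overlap between the genes. Hk2, a hexokinase found in few adult tissues, exceeded the common Hk1 by 2.79 ± 0.123 times, at 29.5 ± 3.30 TPM. Slc2a1, the general glucose carrier, was at 26.1 ± 1.89 TPM. The lactate carrier Slc16a1 was at 63.5 ± 2.51 TPM, above Slc16a3 at 2.18 ± 0.164 TPM.

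**Figure D3:**
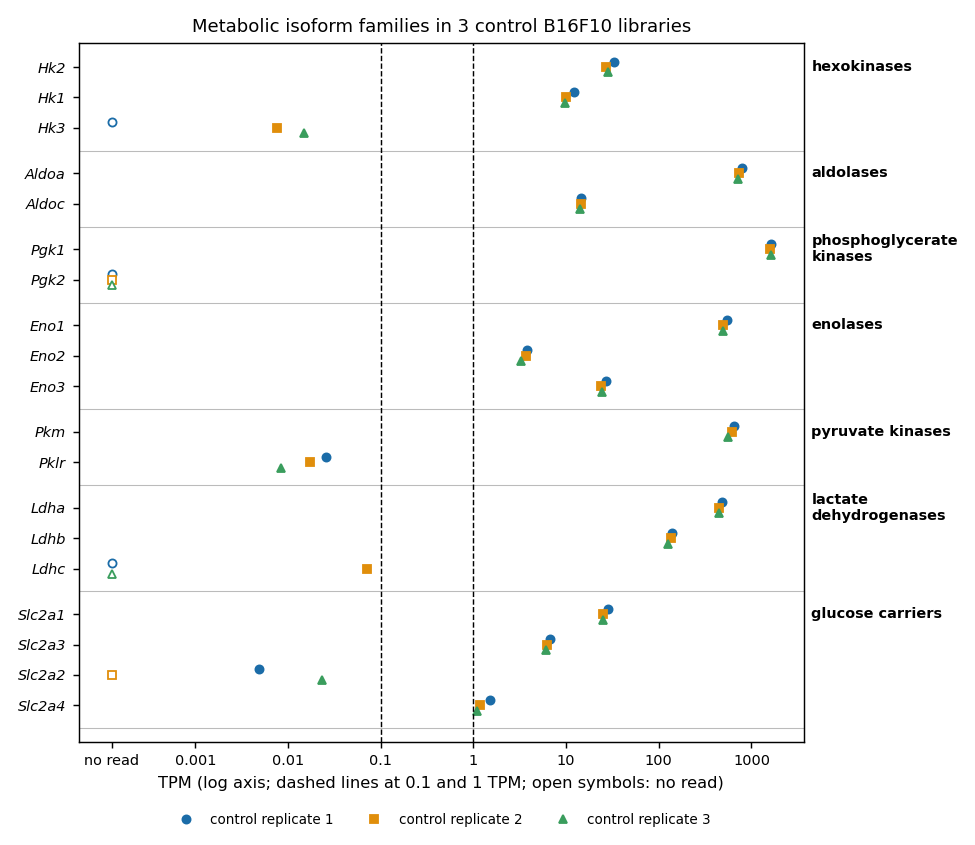
TPM on a log axis of metabolic isoform families in the 3 control libraries (symbols by replicate, open where a library had no read), with dashed lines at 0.1 and 1 TPM. In the hexokinase, phosphoglycerate kinase, pyruvate kinase and lactate dehydrogenase families, the lowest member shown had at most 4 reads in a library, while Pgk1, Aldoa, Pkm, Eno1 and Ldha lay at or above 446 TPM.

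Of 34 genes of the TCA cycle and pyruvate entry, 30 were on and 2 off with a median of 55.4 TPM, among them Idh1 at 203 ± 7.04 and Cs at 91.4 ± 6.56 TPM. Ppargc1a, the coactivator of mitochondrial biogenesis that MITF is known to drive in some melanomas, was on at 22.7, 19.1 and 19.1 TPM. The heart and muscle subunit gene Cox7a1 stood at 1.00 ± 0.0619 TPM against 578 ± 20.5 TPM for Cox7a2, and Cox4i2 was off beside Cox4i1 at 501 ± 3.38 TPM. The ADP/ATP carrier Slc25a5 was 2.13 ± 0.00518 times the level of Slc25a4.

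Of 39 genes of amino acid metabolism 22 were on (56.4%) and 11 off (28.2%), beside 47.0% on and 41.7% off among all coding genes. The serine synthesis genes Phgdh and Psat1 were at 282 ± 3.43 and 312 ± 2.76 TPM, and asparagine synthetase, Asns, was at 187 ± 4.15 TPM. Ass1, which makes the precursor of arginine, was on at 66.6, 62.3 and 62.2 TPM. The arginine and tryptophan consumers that mark suppressive myeloid or tumour cells were not on: Ido1 had no read, Nos2 and Tdo2 were off, and Arg1 was low with 7, 9 and 3 reads.

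Of 38 lipid synthesis and storage genes 25 were on. The desaturase Scd2 was at 617 ± 52.4 TPM, 5.03 ± 0.0420 times the level of Scd1, and fatty acid synthase, Fasn, was at 124, 97.5 and 99.2 TPM. Replicate 1 stood apart in Fasn, with a coefficient of variation of 8.76% against a median of 3.97% over 6294 coding genes of at least 10 TPM. Entpd1 and Nt5e, the surface enzymes that turn ATP into adenosine, were both off with at most 7 reads in a library. In gluconeogenesis Pck1 and G6pc had no read, while the mitochondrial Pck2 was at 11.4 ± 0.333 TPM.

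Iron, redox and hypoxia genes were largely on, with 24 of 28 on in the redox and iron list. Fth1, the ferritin heavy chain, was at 1179 ± 51.7 TPM and the transferrin receptor Tfrc at 282 ± 7.60 TPM. Gpx4, which guards membranes from lipid peroxides, was at 201 ± 11.3 TPM, and the cystine carrier Slc7a11 at 11.9 ± 0.526 TPM. Hif1a was at 105 ± 3.88 TPM, 16.2 ± 1.09 times the level of Epas1. Of the carbonic anhydrases, Car14 was at 105 ± 4.72 TPM and the hypoxia marker Car9 at 2.12 ± 0.135 TPM.

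Antigen presentation was uneven between the light and heavy chains of MHC class I. B2m, the light chain, was counted at 538, 493 and 510.0 TPM. The heavy chain H2-D1 was at 27.9, 27.3 and 25.7 TPM and H2-K1 at 5.56, 4.99 and 4.38 TPM, so that B2m stood 19.1 ± 0.892 and 104 ± 10.8 times above them. Class I genes are near-identical copies, and reads that fit several of them may have been dropped, which makes the heavy chain values uncertain. The peptide transporter gene Tap1 was at 1.39 ± 0.153 TPM, its partner Tap2 was low at 0.260 ± 0.0714 TPM, and Nlrc5, the class I transactivator, was low at 0.350 ± 0.0668 TPM. In the whole class I list 14 of 21 genes were on, 4 low and 3 off, and its highest members, Calr, Pdia3 and Canx, are chaperones of general use.

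Of the immunoproteasome subunit genes only Psmb10 was on. Psmb8 was off with 2, 0 and 4 reads and Psmb9 low with 18, 20 and 11 reads, while Psmb10 was on at 11.9 ± 0.539 TPM. Their constitutive counterparts were at 104 ± 5.05 (Psmb5), 210.1 ± 1.51 (Psmb6) and 121 ± 1.99 TPM (Psmb7). Psmb7 was 10.2 ± 0.460 times the level of Psmb10, the subunit that replaces it.

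The MHC class II chains were off. H2-Aa and H2-Ab1 had no read, Ciita, the transactivator, was off with 2, 2 and 4 reads, and the invariant chain Cd74 was low with 7, 3 and 1 reads. The 4 of 13 class II genes that were on were H2-DMb1, a peptide loading chain, and Rfx5, Rfxap and Rfxank, which form the general factor that binds these promoters.

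No listed interferon gene was on, while most of their receptor chains were. Of the 11 interferon genes listed 10 were off and Ifnk was low with 0, 3 and 1 reads, and Ifnb1 and Ifng had 1 read each over the 3 libraries. Outside the list, Ifna13 was low with 4, 4 and 1 reads and Ifnz low with 7, 13 and 6 reads. The type I receptor chains Ifnar1 and Ifnar2 were at 29.4 ± 1.23 and 9.81 ± 0.476 TPM. Ifngr1 and Ifngr2, for interferon gamma, were at 15.4 ± 0.263 and 35.8 ± 1.11 TPM. The type III chain Ifnlr1 was low at 0.106 ± 0.0111 TPM. Jak1, a kinase that these receptors use, was at 34.2 ± 2.72 TPM.

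Interferon-stimulated genes were on in 22 of 28 cases with a median of 3.85 TPM. The antiviral membrane proteins Ifitm2 and Ifitm3 led at 187 ± 8.85 and 97.2 ± 2.78 TPM. Ifit1 was at 18.8, 17.7 and 17.5 TPM, Isg15 at 14.4, 13.9 and 13.6 TPM and Rsad2 at 12.6, 12.8 and 12.8 TPM. Oas2, Oas3 and Ifitm1 were off, and Irf7, which amplifies the response, was low at 0.366 ± 0.0686 TPM.

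Of 33 genes listed for nucleic acid sensing, which include adaptors and Tlr4, 15 were on (45.5%), close to the 47.0% of all coding genes. Tlr4, the receptor for bacterial lipopolysaccharide, was counted at 40.3, 37.7 and 39.0 TPM, above Tlr3 at 6.11 ± 0.832 TPM. The DNA sensor Cgas and its adaptor Tmem173, which encodes STING, were both on, at 8.89 ± 0.246 and 20.8 ± 1.37 TPM, as was Mavs at 12.9 ± 0.998 TPM. Aim2 and Zbp1 were off with at most 6 reads in a library. Trex1 had no read, but all of its exon bases lie within exons of another gene. All 133 coding genes so covered on their own strand had no read, as did all 35 covered on the other strand only. Among 15387 coding genes with no such overlap 32.4% had no read, so the 0 of Trex1 says nothing of its level.

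**Figure D4:**
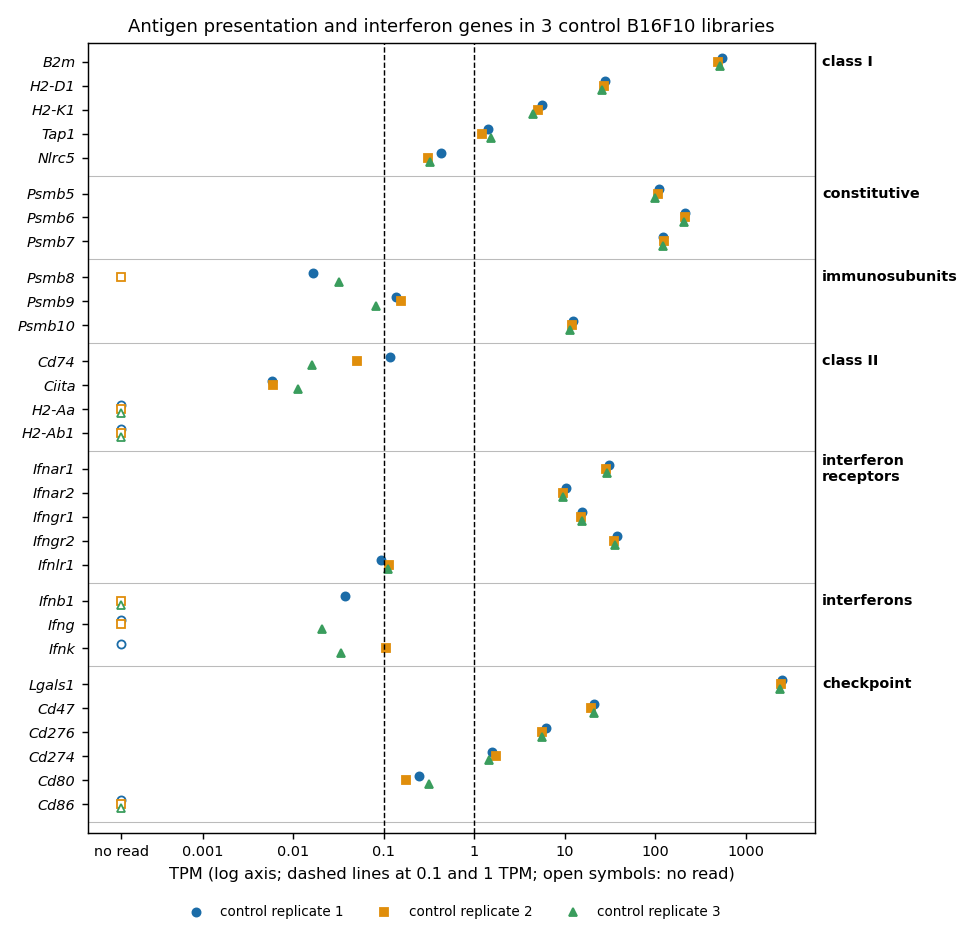
TPM on a log axis of antigen presentation, proteasome, interferon and checkpoint genes in the 3 control libraries (symbols by replicate, open where a library had no read), with dashed lines at 0.1 and 1 TPM. B2m and the constitutive proteasome subunits lie near or above 100 TPM, H2-K1 near 5 TPM, and Psmb8, Ciita, Cd86 and the interferons near or below 0.1 TPM.

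Checkpoint ligands were modest apart from the galectins. Cd274, which encodes PD-L1, was on at 1.57, 1.74 and 1.45 TPM, and Pdcd1lg2, which encodes PD-L2, was low with 9, 2 and 2 reads. Cd276 was at 5.81 ± 0.316 TPM, the phagocytosis brake Cd47 at 20.3 ± 0.781 TPM and Pvr, the ligand of TIGIT, at 11.8 ± 1.02 TPM. Lgals1, galectin 1, was at 2488, 2459 and 2382 TPM and ranked 15 among nuclear coding genes. The costimulatory genes were nearly silent, with Cd80 low at 0.243 ± 0.0697 TPM and Cd86 at 0 reads. Among ligands of the natural killer receptor NKG2D, Raet1d was at 20.5 ± 0.766 TPM and H60b at 2.19 ± 0.302 TPM.

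Few chemokines or cytokines were on. Of 31 chemokines 4 were on and 23 off, and of 21 chemokine receptors 2 were on and 17 off. Cxcl10, which draws T cells, was at 12.3, 12.2 and 11.9 TPM and Ccl5 at 8.48, 5.93 and 6.54 TPM, the latter with replicate 1 well above the other libraries. Ccl25 and Ccl27a were the other 2 that were on, at 3.12 ± 0.339 and 2.85 ± 0.265 TPM. Ccl2 and Cxcl9 were off, and the receptors Cxcr4 and Ccr7 had no read, while Ackr3, which also binds the ligand of Cxcr4, was on at 3.43 ± 0.406 TPM. Of 35 cytokines 7 were on, led by Mif at 986 ± 62.7 TPM, with Spp1 at 17.7 ± 1.77, Il18 at 13.3 ± 1.27 and Csf1 at 3.26 ± 0.376 TPM. Tnf and Il1b were off.

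Of 14 cadherin genes 3 were on (21.4%), 6 low and 5 off, beside 47.0% on and 41.7% off among all coding genes. Cdh19, a cadherin of neural crest and glia, was at 76.7, 77.9 and 82.0 TPM, Cdh2 at 33.2, 26.5 and 29.9 TPM and the epithelial Cdh1 at 0.348, 0.314 and 0.337 TPM, so Cdh2 exceeded Cdh1 by 89.5 ± 5.74 times. Among integrins 9 of 26 were on (34.6%), with Itgb1 at 279.7 ± 16.8, Itgav at 31.8 ± 2.18 and Itga4, which binds VCAM1, at 14.9 ± 1.31 TPM. The intermediate filament gene Vim was at 625 ± 35.7 TPM, and the epithelial keratins Krt8 and Krt18 had no read.

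Of 35 matrix and protease genes 22 were on. Sparc, a matrix glycoprotein, was at 524, 481 and 489 TPM. The protease inhibitor Timp2 was at 87.7 ± 5.01 and the membrane protease Mmp14 at 28.0 ± 2.42 TPM. Among the fibrillar collagen genes, Col1a1 was on at 2.17 ± 0.0868 TPM and Col3a1 was off with 1, 1 and 0 reads.

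Of 5 Schwann and glial markers 4 were on, and of 4 neuronal markers 1. S100b, a marker of Schwann cells and of melanoma, was at 79.6, 72.8 and 74.2 TPM and the neuronal tubulin Tubb3 at 102 ± 4.68 TPM. The other neuronal markers were off, with 1, 2 and 7 reads for Syt1 and none for Snap25 and Rbfox3. Gfap and Mbp were just above the threshold, at 1.66 ± 0.0740 and 1.49 ± 0.1 TPM. Apoe, an apolipoprotein, was at 319 ± 17 TPM, and Mcam, a melanoma adhesion molecule, at 72.7 ± 5.18 TPM. The tumour antigen gene Prame had no read.

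Some HOX genes, which record where along the body axis a cell arose, were on in clusters A, B and D. Only in cluster A was the share on above the 47.0% of all coding genes. In cluster A 7 of 11 genes were on, led by Hoxa10 at 35.4, 36.2 and 35.6 TPM, and in cluster B 2 of 10, led by Hoxb9 at 7.57 ± 0.968 TPM. In cluster C none of 9 was on and 8 were off. In cluster D Hoxd13 alone was on, with 1353, 1180 and 1277 reads or 14.2 ± 0.933 TPM. The adjacent Hoxd12 had 1, 0 and 0 reads, and Evx2, on the other side of Hoxd13, had none. Hoxd4 had no read either, but it lies within the span of Hoxd3, where reads in any shared exons may not have been assigned.

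Factors of other lineages were mainly off. Of 36 GATA, FOX and other lineage factors 5 were on, among them Foxc1 at 6.83 ± 0.412 TPM. The pluripotency genes Pou5f1 and Nanog were off with at most 4 reads in a library, Lin28a had no read, and Lin28b, which blocks let-7 maturation, was on at 2.76, 2.68 and 2.70 TPM. Of the nuclear receptors 12 of 24 were on, a share close to the 47.0% of all coding genes, led by Rxra at 22.5 ± 2.20 TPM. The glucocorticoid receptor gene Nr3c1 was the only 1 of 6 steroid hormone receptors that was on, at 13.4 ± 0.915 TPM.

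Markers of other cells that a culture could hold were read as well. Ptprc, Adgre1 and Nkg7 for leukocytes, Epcam, Krt5 and Krt14 for epithelium, Cdh5 for endothelium and Alb for liver had no read in any library. Of the 10 leukocyte markers 3 were on, Cd68 at 2.85 ± 0.442, Fcer1g at 2.10 ± 0.259 and Lyz2 at 1.47 ± 0.0770 TPM. None of the 5 endothelial or 6 epithelial markers was on, and of 6 fibroblast and mural markers Pdgfrb was, at 1.57 ± 0.342 TPM.

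**Figure D5:**
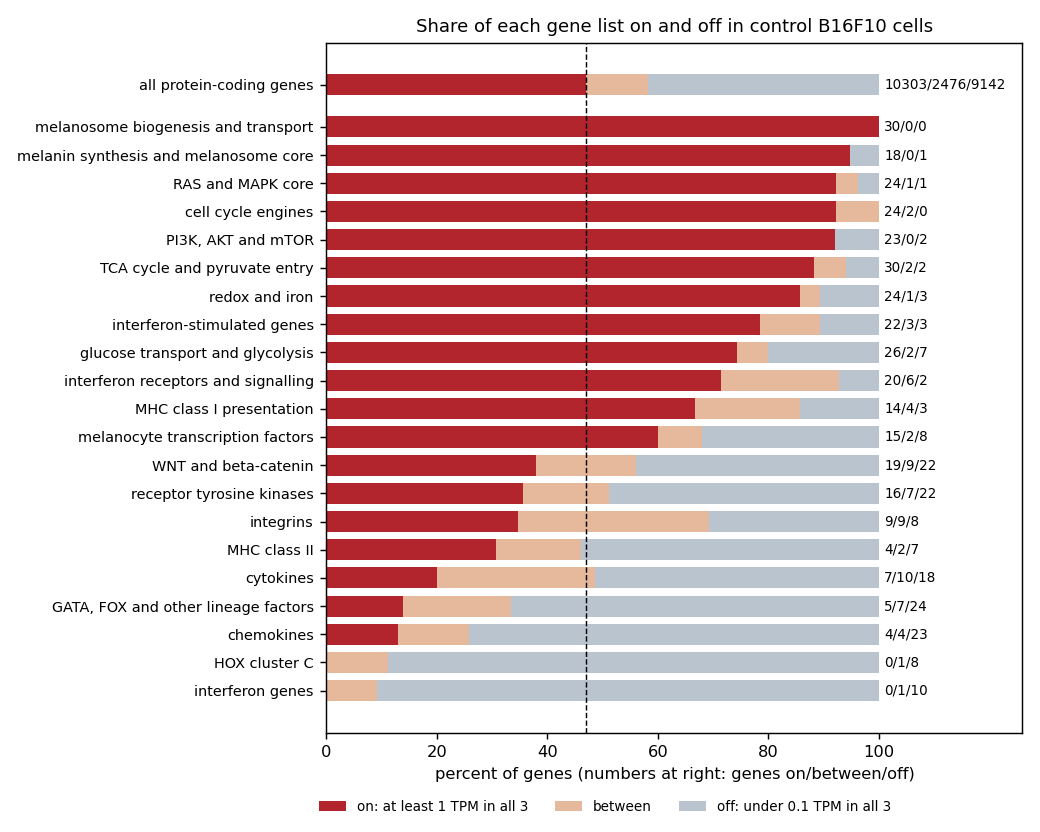
Share of each gene list that was on, between the thresholds or off in the 3 control libraries (horizontal axis, percent of genes), with the counts on, between and off at the right and the dashed line at the 47.0% of all protein-coding genes that were on. Melanosome lists were on in 30 of 30 and 18 of 19 genes, while 0 of 11 interferon genes and 0 of 9 genes of HOX cluster C were on.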

How the data were processed

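The values deposited by the authors are raw counts of reads for each gene, made with bcl2fastq, HISAT2 and HTSeq on the mm10 build, per the submitters' processing notes, while tool versions, annotation release and strand setting are not given in the sources used here. Reads that fit several genes or places are dropped by HTSeq in its default mode, so genes that overlap others or have near-identical copies can be counted low. Of 54752 identifiers 54723 matched GENCODE M21, which gave symbols, types and exon lengths, and 29 did not. TPM was computed from the counts and the summed length of all exons of a gene, over all genes. Rn7sk, a small nuclear RNA, took 12.9 to 13.9% of TPM and nuclear coding genes 52.3 to 54.5%, so TPM of coding genes is lower than over coding genes alone, while ratios between genes are not affected.

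The replicate libraries were compared by a chi-square statistic per degree of freedom of 8.16 to 16.4, so no pair agreed within sampling noise. Mitochondrial transcripts held 2.00, 1.53 and 1.97% of counts. The calculation was tested on simulated data. It used Python 3.11.15 with pandas 2.3.3. For the scaling alternatives the factors came from edgeR 4.0.16 and DESeq2 1.42.0 in R 4.3.3. The coefficient of variation is that of CPM scaled by the TMM factors of edgeR.

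The 70 lists hold 1305 genes, of which 1300 matched. The control libraries and the lists were chosen with earlier results of these data known. Genes were named by rule, as the lineage markers, some set genes of each list, the 4 highest members of a list, its off members where they were at most 8, the 15 highest nuclear coding genes other than ribosomal protein genes and the 8 with the highest coefficient of variation among coding genes of at least 10 TPM. Members named beside them, such as partners in a family, were chosen after their values were seen. No groups were compared and no test was made. A few genes that this naming covers are left out of the text.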

Additional observations from a re-analysis of the deposited data

How the results depend on the processing

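Under the 10 alternatives run, the number of coding genes that were on ran from 9630 with thresholds 2 times as high to 10827 with thresholds at 0.5 and 0.05 TPM, and the number off from 8393 to 9900, all within 1.5 times of 10303 and 9142. Leaving out 1 library gave 10322 to 10357 on and 9242 to 9359 off. No list gene went from on to off or from off to on under any of them. Of 1300 list genes, 115 changed class with the higher thresholds, 77 with the lower, 68 with TPM over nuclear coding genes, 85 with CPM, 21 with the longest transcript as length and 10 to 15 without 1 library. TPM of coding genes that were on was 1.87 times higher (median) with TPM over nuclear coding genes. With TPM over nuclear coding genes 387 of 550 named genes were higher beyond their SD, and with the longest transcript as length 138 were higher and 108 lower by more than it. TMM and DESeq2 factors changed the class of 2 list genes each and moved no named gene beyond its SD. The number on in a list moved up by over 1.5 times in 3 lists with lower thresholds. With TPM over nuclear coding genes it moved up in 2 lists, and without replicate 3 in 1. With CPM it moved up in 4 lists and down in 1. With higher thresholds it moved down in 10 lists. Among them the number on was 7 for growth factor ligands, 4 for HOX cluster A, 3 for other lineage factors, 2 for MHC class II and 1 each for chemokine receptors and leukocyte markers. No paired analysis was possible because the values come from 1 group with no test.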

Other observations

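Some values fell outside the gene groups above. Il4, a cytokine of T helper and mast cells, was on with 116, 140 and 123 reads or 2.85 ± 0.313 TPM, and none of its exon bases overlaps another gene. Of 1135 olfactory receptor genes by symbol 1 was on, Olfr889 at 5.03, 4.69 and 4.51 TPM. Prl2c3, a placental prolactin relative with near-identical copies, was on at 2.64 ± 0.317 TPM. Of 53 keratin genes 2 were on, and Krt80 was the higher at 2.61 ± 0.424 TPM. All 37 tRNA synthetase genes were on.

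On chromosome Y 10 of 1570 annotated genes had a read, and 180 of its 183 coding genes had none. The 2 coding genes that were on were Gm47283 at 32.2 ± 4.93 TPM and Gm21860 at 3.98 ± 0.354 TPM. Whether their reads are specific to chromosome Y was not tested. Ddx3y, Eif2s3y and Kdm5d had no read and Uty had 1 read in replicate 1. Xist, the RNA that coats an inactive X chromosome, had 0, 2 and 0 reads.

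Among coding genes of at least 10 TPM, 122 of 6294 had a coefficient of variation above 10%, and 6 of the 8 highest were mitochondrial. Of these mt-Nd4 was at 2200, 1368 and 2023 TPM and mt-Co1 at 5349, 3500 and 4968 TPM, lowest in replicate 2 in both. Gm10800 had the highest value, 23.5%, at 15.6, 14.3 and 21.4 TPM. The nuclear RNA Malat1 was at 240.2, 163 and 202 TPM, again lowest in replicate 2.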
